A study of Mus musculus with 6 samples.

Results

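The odd probe pool against the mouse RNA Hoxc4-au was used to capture chromatin from preadipocytes in 2 replicates, with the input of the same replicate as the reference for each capture. Every peak that the authors' caller listed for this pool was kept, which gave 204 peaks in replicate 1 and 4157 in replicate 2, 4361 of the 9821 peaks of the series. The cells were preadipocytes derived from the epididymal fat of C57BL/6 mice, with no further treatment or genotype given in the labels. The other libraries were captures with the even pool of probes (234 and 5226 peaks) and the 2 inputs, which are fragmented chromatin taken without capture. Nothing in the labels ties the replicates to separate animals or cultures, and their spread may be technical. The protocol text attached to all 6 libraries names both pools together, and only the sample titles separate even from odd. No capture with probes against another RNA was analysed here.

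ChIRP-seq maps the DNA that an RNA touches: biotinylated DNA oligonucleotides complementary to the RNA pull it out of crosslinked chromatin, and the DNA that comes along is sequenced. The probes that tile the RNA are numbered and divided into an even and an odd pool, which share the target RNA but no probe. Probes are complementary to the RNA and can also pair with the DNA of the gene that encodes it. A region found by both pools is therefore commonly kept, while a region found by a single pool can come from the sequence of a probe. Hoxc4-au carries the name of Hoxc4, which encodes a homeodomain transcription factor of the HoxC cluster. Hox genes set the positional identity of cells along the body axis, and preadipocytes are the precursors from which fat cells form. In the RefSeq gene table, Hoxc4 stands last of 10 HoxC genes along mouse chromosome 15, counting the noncoding RNA Hotair, next to Hoxc5. That table is on another build than the peak lists, which use mm9, so no peak was assigned to a gene here and all positions are mm9.

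Odd-pool libraries differed in depth and in yield. Replicate 1 kept 4099230 tags after the caller removed duplicates, which were 40.2% of its tags, and replicate 2 kept 10231007 tags with 7.16% duplicates. Replicate 2 thus had 2.50 times the tags and 20.4 times the peaks. Summit fragments are the fragments that the caller piled up at the highest point of a peak. The median peak held 8 of them in replicate 1 and 7 in replicate 2, which is 1.95 and 0.684 per 1000000 kept tags (FPM). Peaks of 20 or more fragments made up 21.6% of the list in replicate 1 (44 peaks) and 1.97% in replicate 2 (82 peaks). Many of these stood over a high input background. Without peaks over 10 or more input fragments the shares were 10.7% (19 of 178) and 0.658% (27 of 4102). In both lists the narrowest peaks were 95 bp wide, the length to which the caller extended each tag, and the median width was 132 bp in replicate 1 and 103 bp in replicate 2.

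**Figure D1:**
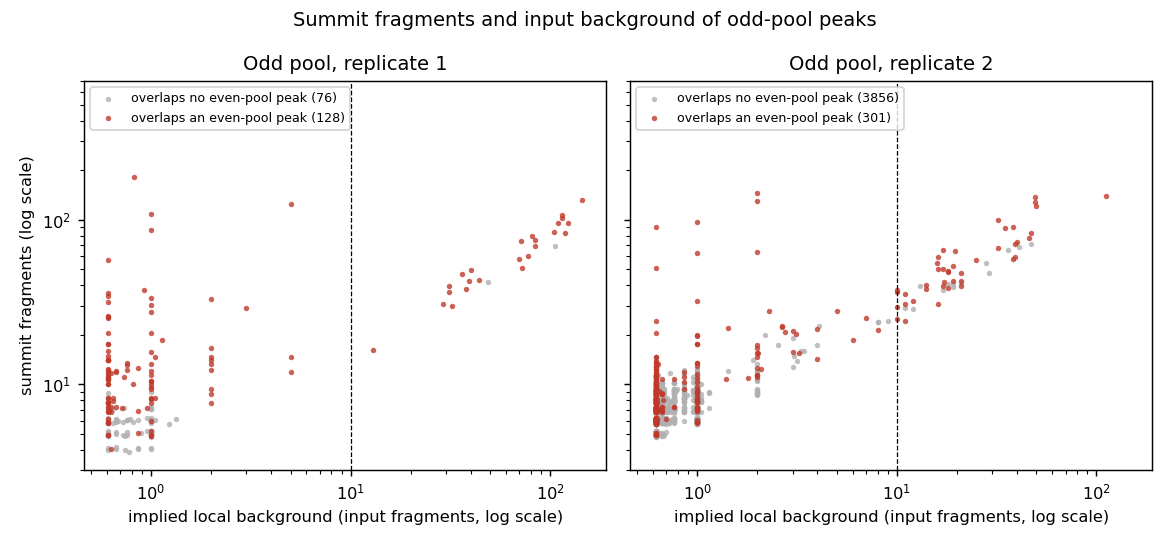
Summit fragments of each odd-pool peak (vertical, log scale, jittered slightly) against the local background that the caller took from the input, in input fragments (horizontal, log scale), for replicate 1 (left) and replicate 2 (right). Red peaks overlap an even-pool peak of either replicate and grey peaks overlap none; the dashed line marks 10 input fragments, above which 26 peaks of replicate 1 and 55 of replicate 2 lie.

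The odd pool marked 48 regions in both replicates. They held 50 of the 204 peaks of replicate 1 (24.5%, exact binomial 95% interval 18.8 to 31.0) and 49 of the 4157 peaks of replicate 2 (1.18%, 0.873 to 1.56). The even lists gave lower shares with the same count, 17.1% and 0.67% of their peaks. Strong peaks recurred most. Peaks over fewer than 10 input fragments are called low-background here. Among these, 9 of the 10 odd peaks with the highest q-value score (−log10 q) in replicate 1 were called again in replicate 2, and 16 of the highest 20. In the other direction 6 of the highest 10 and 14 of the highest 20 of replicate 2 were called in replicate 1. These intervals, and those on fragments below, are exact at 95% and cover counting error alone, because each list rests on 1 captured library.

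A run of 5 low-background regions within 10 kb on chromosome 15 was called in both replicates, and 4 of them held more odd-pool fragments in replicate 1 than any other low-background region. The rightmost pair lay 366 bp apart. The site at 102865153 to 102865646 held 176 summit fragments in replicate 1 and 64 in replicate 2, or 42.9 and 6.26 FPM. Its neighbour at 102866013 to 102866446 held 108 and 22 fragments, or 26.3 and 2.15 FPM, the steepest difference between replicates of all 48 regions (12.3 times). The left pair, 427 bp apart, differed less. The site at 102857191 to 102858084 held 121 and 99 fragments (29.5 and 9.68 FPM), and the one at 102858512 to 102858763 held 84 and 65 (20.5 and 6.35 FPM). Between the pairs, the narrow site at 102862507 to 102862681 held 38 and 32 fragments (9.27 and 3.13 FPM), with its summit at the same base in both replicates. The caller keeps 1 tag per position and strand, so a summit can hold at most 190 fragments, and counts near that cap understate the signal.

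The chromosome X region at 103382016 to 103382604 was the highest outside chromosome 15 on the smaller of its 2 odd folds, the fold being summit fragments over local input with 1 added to each. It held 58 fragments in replicate 1 (exact Poisson interval 44.04 to 74.98) and 53 in replicate 2 (39.7 to 69.3), or 14.1 and 5.18 FPM. The counting intervals of the raw fragments overlap although the libraries differ in depth. Of the 15 odd peaks on chromosome X in replicate 2, it is the only one that replicate 1 also had.

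A group of compact sites followed, 6 of them 154 to 168 bp wide in replicate 1. The chromosome 14 site at 104736122 to 104736289 held 37 and 20 fragments in replicates 1 and 2. The chromosome 2 sites at 16604662 to 16604819 and at 125973572 to 125973728 held 35 and 20, and 30 and 19. The chromosome 9 site (70653934 to 70654101) held 31 and 11, and that on chromosome 6 (131327506 to 131327659) 21 and 12. The sites on chromosome 18 (65587076 to 65587234) and chromosome 1 (12634788 to 12634986, wider at 199 bp) held 25 and 14, and 25 and 18. In each of these the summits of the replicates lay 1 to 17 bp apart. In FPM all were more abundant in replicate 1.

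Other members of the 20 highest regions were broader or weaker. On chromosome 17 (4626163 to 4626634) a region of 472 bp held 34 and 14 fragments, with summits 139 bp apart. The neighbours on chromosome 6 at 121438085 to 121438368 and 121438480 to 121438753 held 12 and 13 fragments, and 8 and 12. A further chromosome 6 region, at 124440760 to 124441077, held 8 and 12 with summits 146 bp apart. Regions on chromosome 8 (23654400 to 23654637) and chromosome 14 (33667352 to 33667498) held 12 and 14, and 13 and 10; both were called with the even pool in replicate 1 alone. The chromosome 11 region at 61810284 to 61810493 held 8 and 11 fragments and had an even-pool peak in replicate 2 alone.

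Across the 40 regions over a low background, FPM was higher in replicate 1 in 39, with a median ratio of 2.75. A call in the shallower library needs a higher FPM, so the choice of regions called in both favours this direction. In fold the regions were closer: the median was 10.3 in replicate 1 and 8.02 in replicate 2, and 25 of 40 were higher in replicate 1. Their folds ranked alike to a moderate degree (Spearman rho = 0.65, Pearson r = 0.72 on the log2 scale, a description over 40 regions of the same pair of libraries). Over all 48 regions rho was 0.79. The other 8 regions stood over 10 or more input fragments in either replicate, and their folds were at most 4.78. Of those 8, 4 had a higher FPM in replicate 1 and the rest in replicate 2.

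**Figure D2:**
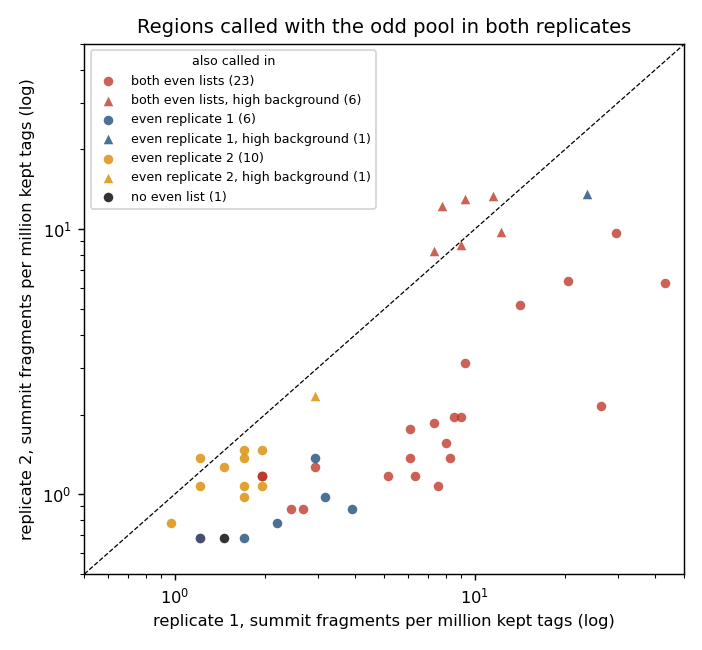
Summit fragments per 1000000 kept tags (FPM) of the 48 regions called with the odd pool in both replicates, replicate 1 (horizontal) against replicate 2 (vertical), both on log scales, with equality dashed. Colour gives the even lists that also called the region, and triangles mark a background of 10 or more input fragments in either replicate. Of the low-background regions, 39 of 40 lie below the line.

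Even-pool support divided these regions. Of the 48, 29 (60.4%) overlapped a peak of both even lists, 7 one of replicate 1 alone, 11 one of replicate 2 alone, and 1 neither. The 23 low-background regions seen in both even lists had a median of 30 odd fragments in replicate 1 and 14 in replicate 2. The 10 with an even peak in replicate 2 alone were called in replicate 1 by the odd pool and not by the even pool, and all 10 were weak there. They held 4 to 8 odd fragments in replicate 1 and 8 to 15 in replicate 2, and FPM was higher in replicate 1 in 9 of them.
Of these 10, 6 came as close neighbours. On chromosome 2 the regions at 77133012 to 77133275 and 77133930 to 77134156 lay 654 bp apart, with 8 and 7 fragments in replicate 1 and 15 and 14 in replicate 2. On chromosome 8 those at 123877723 to 123877929 and 123878083 to 123878424 lay 153 bp apart, with 4 and 7, then 8 and 10. On chromosome 9 those at 70878637 to 70878795 and 70878981 to 70879155 lay 185 bp apart, with 6 and 7, then 13 and 11. These pairs were picked out after their values were seen. Close pairs also occurred among the low-background regions with a peak in both even lists, on chromosome 15 (427 and 366 bp apart) and chromosome 6 (111 bp).

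A larger share of wide than of narrow odd peaks of replicate 1 was called again in replicate 2. Among its 84 low-background peaks of 8 or more fragments, 12 were wider than 200 bp, and 11 of these were called again in replicate 2 (91.7%, 61.5 to 99.8). Of the 54 that were 140 to 180 bp wide, 16 were (29.6%, 17.98 to 43.61), and of the 17 narrower ones, 1 was. The 12 wide peaks include 4 of the 5 chromosome 15 sites and the chromosome X region; the exception, at 125826902 to 125827253 on chromosome 6, held 18 fragments. Width goes with fragments: the wide peaks held a median of 26, the middle class 13. Over the same range of 8 to 18 fragments, 5 of 6 wide peaks (83.3%, 35.9 to 99.6) and 7 of 42 of the middle class (16.7%, 6.97 to 31.4) recurred. The width classes were set after the widths were seen, a wider peak also has more bases that can overlap, and the difference was not tested. The middle class had width quartiles of 148 and 157 bp, a maximum of 38 fragments, and summits a median of 2.75 bp from the peak's centre. Its limits of 140 and 180 bp bound these quartiles, and the same class in replicate 2 had quartiles of 146 and 163 bp. In replicate 2, 13.2% of the peaks of 8 or more fragments fell in that width range, against 64.3% in replicate 1. The even list of replicate 1 had the same feature, with 63.7% in that range. Most of these replicate 2 peaks (1475 of 1553) held 8 to 11 fragments. At 8 to 11 fragments the odd-pool shares were 52.9% in replicate 1 and 12.2% in replicate 2. They were 77.4% and 33.3% at 12 to 19 fragments, and 63.2% and 29.6% at 20 or more. Depth and duplicate share also differ between the replicates, and their part in the width of peaks was not tested.

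**Figure D3:**
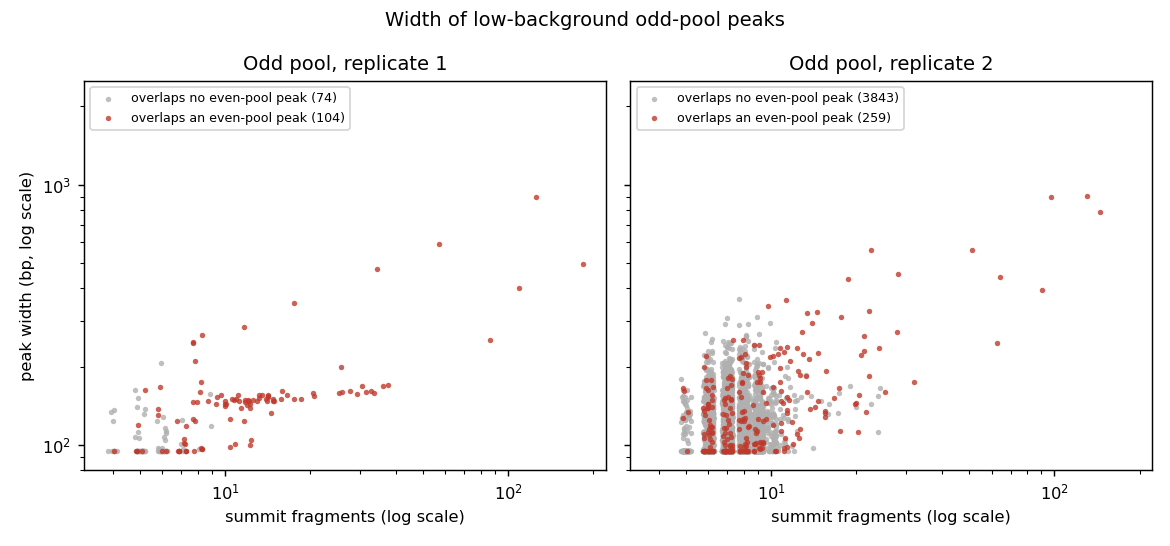
Width of each low-background odd-pool peak (vertical, bp, log scale) against its summit fragments (horizontal, log scale, jittered slightly), with colours as in the plot of fragments against background. In replicate 1 a band near 150 bp runs up to 38 fragments, with 12 wider peaks of 8 or more fragments above it, while a smaller share of the peaks of replicate 2 lies near that width.

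Most odd peaks of replicate 2, and a minority of those of replicate 1, had no even-pool counterpart. Peaks that overlapped no even-pool peak of either replicate numbered 76 of 204 in replicate 1 (37.3%, 30.6 to 44.3) and 3856 of 4157 in replicate 2 (92.8%, 91.9 to 93.5). The same count in the other direction was 47.9% of the even peaks of replicate 1 and 94.3% of those of replicate 2. Against the even list of the same replicate alone the shares were 45.1% and 93%. In replicate 1 the marked peaks were the weak end of the list. They held a median of 5 fragments against 12 for the remaining 128, 67.1% of them were at most 100 bp wide against 16.4%, and 36.8% had a q above 0.05 against 6.25%. In replicate 2 the gap was smaller: a median of 7 fragments against 9. The caller's p cutoff hides even-pool signal below it, so the mark says that no even peak was called, not that even-pool fragments were missing. Within 1 kb of an even peak lay 4 of the 76 and 264 of the 3856.

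Weak odd peaks seldom had an even-pool peak and strong ones mostly did, with the change at different counts in the replicates. In replicate 1, low-background odd peaks of 6 fragments had an even peak in 5 of 31 cases (16.1%), those of 7 in 11 of 17 (64.7%), those of 8 in 14 of 15 (93.3%), those of 9 to 10 in 10 of 12 (83.3%), and all 57 of 11 or more. In replicate 2 the share lay between 4.03% and 4.94% from 5 to 8 fragments, without order, and was 6.92% at 9 to 10 (36 of 520). It was 55.6% at 11 to 14 (40 of 72, interval 43.4 to 67.3) and 81.5% at 20 or more (22 of 27). Recurrence in the other odd replicate followed another course. Of the replicate 1 peaks of 11 to 14 fragments, 29 of 29 had an even peak but 5 of 29 an odd peak in replicate 2. At 20 or more, 16 of 19 recurred (84.2%, 60.4 to 96.6). Odd peaks of intermediate strength in replicate 1 thus overlapped an even peak far more often than an odd peak of replicate 2. The even peaks counted include those of the same replicate, called against the same input, so pool and replicate are not separated here. Of all replicate 1 odd peaks without an odd peak in replicate 2, 73 had an even peak in replicate 1 alone. Only 4 had one in replicate 2 alone, and 2 in both.

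**Figure D4:**
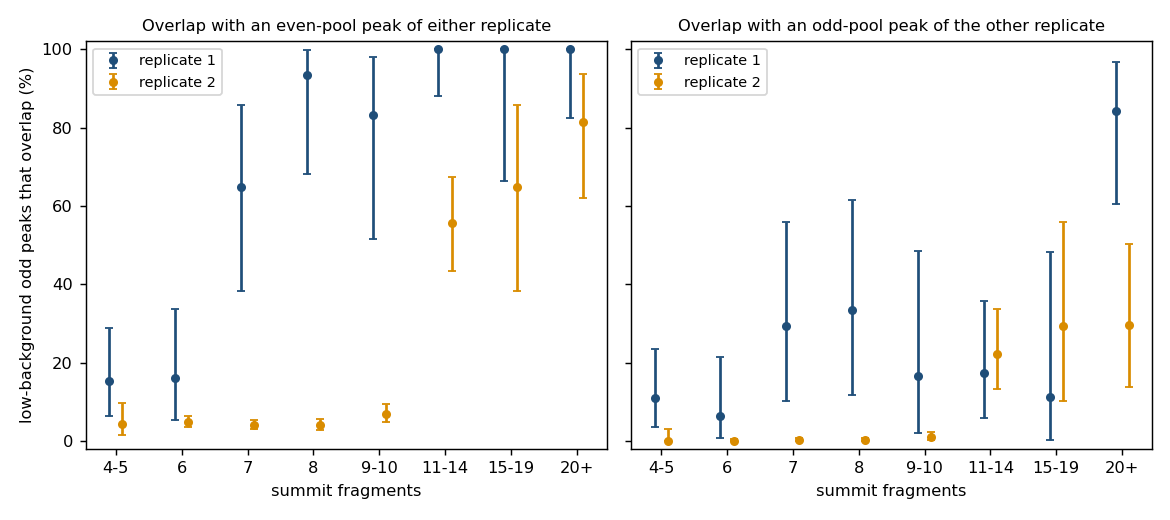
Share of low-background odd-pool peaks, by summit fragments, that overlap an even-pool peak of either replicate (left) or an odd-pool peak of the other replicate (right), with exact 95% intervals for counting error. Overlap with the even pool reaches 93.3% at 8 fragments in replicate 1 and 55.6% at 11 to 14 in replicate 2, and recurrence between odd replicates is highest, at 84.2%, for replicate 1 peaks of 20 or more.

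A single region was called with the odd pool in both replicates and with the even pool in neither. It lies on chromosome 1 at 91548037 to 91548144 and held 6 fragments in replicate 1 (2.20 to 13.1) and 7 in replicate 2 (2.81 to 14.4), with summits 10 bp apart. An even-pool peak was nonetheless called close by, 37 bp from the odd peak of replicate 1 and 28 bp from that of replicate 2. The mark of this region therefore rests on the 1 bp overlap rule. The region's folds of 5.70 and 4.35 ranked 110 of 204 and 3614 of 4157, near the middle of the first list and in the lower part of the second. On chromosome 8, the replicate 2 peak at 71175742 to 71175862 (8 fragments) also overlapped no even peak, but the odd peak of replicate 1 that it touches did.

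Among odd peaks without an even peak, the strongest of replicate 1 were those on chromosome 1 (12165187 to 12165343) and chromosome 16 (49868026 to 49868143). Each held 9 fragments, with folds of 8.28 and 7.44. Those on chromosome 10 at 117177154 to 117177254 and 6788993 to 6789088 held 7 and 8, and those on chromosome 7 (145163060 to 145163155) and chromosome 2 (29943753 to 29943847) held 7 each. Below these, 6 peaks tied at 6 fragments and a fold of 5.79. None of the 10 leading ones by q recurred in the odd list of replicate 2, and of all 76 peaks of this kind only 1 did.
In replicate 2 the leading peak of this kind, on chromosome 4 at 145742478 to 145742617, held 20 fragments over 2.18 input fragments, a fold of 7.41. The nearest even peak was 905593 bp away. Peaks on chromosome 2 (32602196 to 32602344) and chromosome 19 (4932260 to 4932426) held 12 fragments each, with folds of 8.55 and 8.05. Another 7 tied at 11 fragments and a fold of 7.90, on chromosomes 5, 6, 7, 11, 13 and 15.
Of the peaks of 20 or more fragments, 2 of 44 in replicate 1 (4.55%) and 18 of 82 in replicate 2 (22%) overlapped no even peak, against 8.2% and 11.7% of even peaks without an odd peak. Both of the replicate 1 peaks and 13 of the 18 stood over 10 or more input fragments.

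Odd peaks of 1 replicate alone were mostly shared with the even pool when strong. Among all odd peaks of replicate 1 not called again in replicate 2, 75 had no even peak. Another 73 had one in replicate 1 alone, 4 in replicate 2 alone and 2 in both, so few of any strength had one in replicate 2. In replicate 1, the 10 with the highest q-value score that were not called with the odd pool in replicate 2 all had an even peak in replicate 1, and none had one in replicate 2. The leading one, at 25000098 to 25000256 of chromosome 11, held 31 fragments (fold 26.5). Sites on chromosome 5 (131995550 to 131995710) and chromosome 2 (145692104 to 145692261) held 27 and 21 (folds 20.8 and 16.4). Next were chromosome 6 sites at 125826902 to 125827253 and 69466295 to 69466444 (18 and 17 fragments), and sites on chromosome 13 (58869737 to 58869897) and chromosome 7 (150554254 to 150554403) with 16 and 18. Of the other 3, sites on chromosome 5 starting at 89965165 and 19388694 held 15 and 14, and one on chromosome 9 (35112770 to 35113113) held 138 over 145 input fragments, a fold of 2.73. Over the genome-mean background, replicate 2 had peaks from 5 fragments (0.489 FPM) upward. The chromosome 11 site held 7.56 FPM in replicate 1. At low-background regions called in both replicates, the median FPM ratio of replicate 1 to replicate 2 was 2.75. FPM values therefore do not carry over directly, and why the site had no odd peak in replicate 2 was not tested.
In replicate 2, the leading 3 lay on chromosome 4 between 43575577 and 43579719, with 129, 90 and 142 fragments, or 12.6, 8.80 and 13.9 FPM, and no odd peak of replicate 1 overlapped them. Replicate 1 had peaks from 4 fragments (0.976 FPM) upward over the genome-mean background. Why it had no odd peak at these chromosome 4 sites was not tested. The chromosome 16 site at 69604247 to 69604481 held 25 fragments. It begins just after a weak odd region called in both replicates (69603981 to 69604080, with 5 and 11 fragments). The sites on chromosome X at 166428000 to 166428452 and chromosome 17 at 36100756 to 36101066 held 29 and 18, both at a fold of 10.3. The other 4 lay on chromosome 11 between 3031933 and 3093621, with 59 to 90 fragments over 16 to 35 input fragments. All 10 overlapped an even peak of replicate 2. Among all odd peaks of replicate 2 not called in replicate 1, 3854 had no even peak. Another 248 had one in replicate 2 alone, 3 in replicate 1 alone and 3 in both.

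Odd-to-even ratios lay on opposite sides of equality in the replicates. At the 115 pairs of overlapping odd and even peaks of replicate 1, the odd pool had the lower FPM in 85, with a median log2 ratio of odd to even of −0.21. At the 295 pairs of replicate 2 it had the higher FPM in 178, with a median of 0.08. The 29 regions called in all 4 lists went the same way: the median log2 ratio of folds was −0.15 in replicate 1 and 0.10 in replicate 2, with 11 and 19 regions higher in the odd pool. Region by region, 8 were higher with the odd pool in both replicates, 7 lower in both, and 14 changed direction. With 2 replicates, the smallest p that an exact two-sided permutation test over the pairs allows is 0.5, and none was made. The mean of the replicates had a median of −0.03, smaller than the SD of 0.18 between them. FPM divides by kept tags. The even library kept 3934792 tags in replicate 1, fewer than the odd library, and 11514289 in replicate 2, more than the odd library. Pairs with equal fragments thus have an FPM ratio below equality in replicate 1 and above it in replicate 2. The part of depth in these ratios was not tested.
Single regions departed further from equality. On chromosome 15 the site at 102866013 was higher with the odd pool in both replicates, by 0.49 and 0.83 on the log2 scale, and the chromosome X region by 0.23 and 0.36. On chromosome 9 the region at 62456332 had log2 ratios of −1.23 in replicate 1 (an odd fold of 9.93 against 23.3) and 0.08 in replicate 2. On chromosome 6 the ratios at 124440573 were −0.15 in replicate 1 and 1.23 in replicate 2 (8.55 against 3.65).
Summits of the pools also lay closer in replicate 1. Among low-background pairs with 11 or more odd fragments, 48 of 57 had odd and even summits within 20 bp in replicate 1 (84.2%, median distance 3 bp) and 30 of 74 in replicate 2 (40.5%, median 30 bp).

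**Figure D5:**
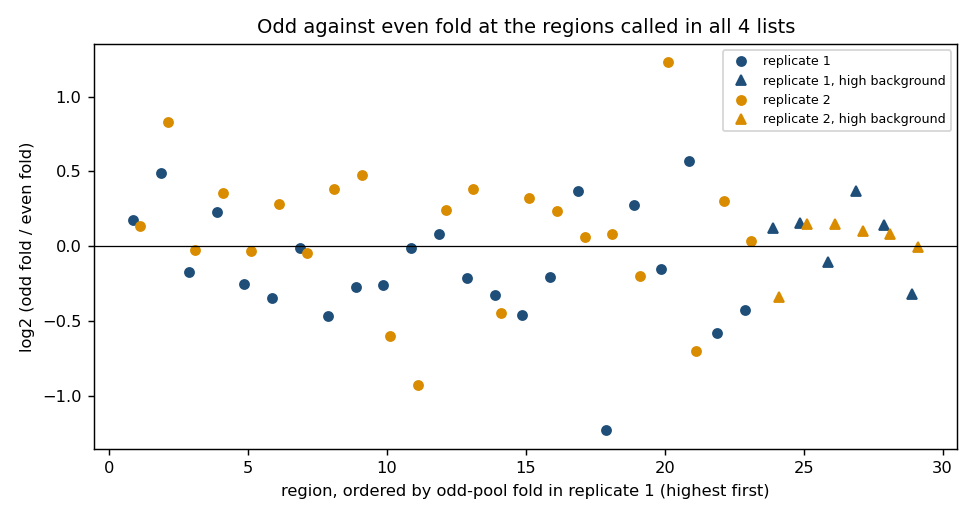
Log2 ratio of odd to even fold enrichment (vertical) at the 29 regions called in all 4 lists, ordered by the odd-pool fold of replicate 1 (horizontal, rank), with replicate 1 in blue and replicate 2 in orange and triangles for a high background. Ratios lie on both sides of 0, from −1.23 to 0.57 in replicate 1 and from −0.93 to 1.23 in replicate 2.

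Peaks over 10 or more input fragments had folds of at most 3.59 in replicate 1 and 4.32 in replicate 2. Low-background peaks had folds from 3.72 and 2.85 upward, so the folds of the sets overlap in replicate 2. The background was recovered from the fold, so these measures are not independent. High-background peaks numbered 26 in replicate 1, of which 9 recurred in the odd list of replicate 2 and 24 had an even peak. In replicate 2 there were 55, of which 8 recurred and 42 had an even peak. Many came in runs of peaks less than 10 kb apart. On chromosome 9, 7 peaks of replicate 1 between 3019281 and 3036426 held 38 to 93 fragments over 38 to 109 input fragments. None overlapped an odd peak of replicate 2. That list did have a peak inside the span, at 3034148 to 3034287, with 53 fragments over 28 input fragments. On chromosome 2, 5 peaks of replicate 1 between 98502420 and 98507483 stood over 81 to 122 input fragments, and 1 recurred. The 6 peaks of replicate 1 on chromosome 17 between 39980128 and 39985697 all recurred, over 29 to 44 input fragments. On chromosome Y, 6 peaks of replicate 2 between 2853440 and 2884799 stood over 16 to 46 input fragments, with folds of 2.07 to 3.15. Replicate 1 also had 1 mitochondrial peak (16074 to 16204), with 75 fragments over 84 input fragments and a fold of 2.54. Whether these peaks reflect the RNA was not tested.

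A run of odd peaks on chromosome X in replicate 2 stood mostly over fewer than 10 input fragments. Its 11 peaks between 166421496 and 166437309 held 14 to 39 fragments, and 10 of them were low-background. Those 10 had folds of 3.31 to 10.3 over 1.90 to 6 input fragments, and the other, starting at 166427317, had a fold of 2.48 over 18. None overlapped an odd peak of replicate 1, and 2 overlapped no even peak. The run held 11 of the 15 odd peaks of chromosome X in replicate 2. Its median background of 2.755 input fragments was above the list median of 0.619. A like run of 4 replicate 2 peaks lay on chromosome 1 between 90149802 and 90154483, and none recurred. Those held 14 to 22 fragments, with folds of 4.12 to 6.05 over 3.135 to 4 input fragments. On chromosome Y, replicate 1 had 1 odd peak (427381 to 427481), with 11 fragments at a low background, and none of the 9 peaks of replicate 2 overlapped it.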

How the data were processed

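Files were 4 peak lists, 1 per captured library. The submitters' processing notes name FastQC, cutadapt, Bowtie, MACS2 and build mm9. Versions other than the caller's, and how reads with several matches were handled, are not stated in those notes. Per the file headers, MACS 2.1.1.20160309 was run by the authors on 1 capture and its replicate's input at a time, with a p cutoff of 5e-05, tags extended to 95 bp, 1 tag kept per position, local background windows of 1 and 10 kb, and no pooling. Input was scaled to the smaller captured library. Deposited columns used were the signal (summit pileup, in fragments), the fold enrichment as a ratio, and the −log10 q-value; the −log10 p-value entered no result. Headers state that q-values would be given as −1, yet the column holds positive values, taken here as listed.

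From these, overlaps (at least 1 bp), regions (connected overlapping peaks), exact binomial and Poisson intervals, and summit fragments per 1000000 kept tags (FPM) were computed with Python 3.11.15, numpy 2.4.6, pandas 2.3.3 and scipy 1.17.1. The input background of a peak was recovered as (pileup + 1) / fold − 1, divided by the input scale (0.344 and 0.840). Overlap counting was tested on simulated data and recovered the planted regions in 5 of 5 simulations. The planted regions stood far apart, so close or chained peaks were not tried. The inputs kept 11924618 and 12179777 tags. No statistical test was made, because each list rests on 1 library.

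Named sites were the 20 regions of both odd replicates with the highest smaller fold, regions of both without an even peak, and the 10 highest q-value scores of each list without an even peak or without an odd peak in the other replicate. Neighbouring pairs, width classes and runs were chosen after their values were seen. Members, rules and lists were chosen with earlier results of these data known. Alternatives were other overlap rules, thresholds, backgrounds, measures and list lengths. No sequences are shown, because no genome of build mm9 was used here.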

Additional observations from a re-analysis of the deposited data

How the results depend on the processing

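The number of odd regions called in both replicates was 48. Requiring a −log10 q of at least 5 gave 24, and a fold of at least 5 gave 31. The count was 36 to 44 under 50% overlap, a 1 kb gap, a −log10 q of 2, equal list lengths and removal of high backgrounds. Odd peaks of replicate 1 without an even peak fell from 76 to 29 (20.1% of the list) at a −log10 q of 2, to 5 (5.75%) at 5, and to 34 (26.4%) at a fold of 5. In replicate 2 they fell from 3856 to 2564 (92.8%), 92 (59.4%) and 2310 (94.7%). The limits were applied to the even lists as well. Fewer odd peaks thus enter, and an odd peak can also lose its even peak. The count of odd regions of both replicates without an even peak, 1 in the main setting, became 0 at a −log10 q of 2 or a fold of 5. With a 1 kb gap it was 3. The chromosome 1 region at 91548037 is not among those 3, because an even peak lay 28 bp from it. At a −log10 q of 5 the count was again 1, but for a different region: the chromosome 8 region at 23654400, whose even peak fell below that limit. The median fold of the 48 regions was 7.45 and 7.47 in replicates 1 and 2. Without high backgrounds it was 10.3 and 8.02, and in FPM, which replaces the fold, 3.54 and 1.37. The median log2 ratio of odd to even fold was −0.03, and from −0.15 to 0.10 with either replicate left out. No paired analysis was possible because no result comes from a test, beyond the odd-to-even ratios themselves, which pair the pools within each replicate. Over the genome-mean background, calls began at 4 fragments (0.976 FPM) in replicate 1 and 5 (0.489 FPM) in replicate 2, and 28.9% and 65.9% of peaks stood over that background; weaker signal gives no peak.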
